A study of Mus musculus with 7 samples.

Results

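The adipogenic transcription factors are 10 genes, Pparg, Cebpa, Cebpb, Cebpd, Rxra, Ebf1, Ebf2, Klf15, Klf9 and Zfp423, taken by gene symbol from the 57010 gene identifiers of the count table, and all 10 passed the filter on low counts, as 17039 identifiers did. They were measured by bulk RNA-Seq in mature white adipocytes freed by collagenase digestion from the perigonadal fat pads of male littermate mice on normal chow, aged 20 weeks by the labels. The 3 control libraries came from FFA2 fl/fl mice, which carry the floxed gene of Free Fatty Acid Receptor 2 (Ffar2) and whose label names no Cre. The 4 Adipoq-F2-KO libraries came from floxed mice that also carry the Adiponectin-Cre transgene, whose promoter is active in adipocytes and not restricted to this depot. Both groups therefore share the floxed alleles, and only the knockout group carries Cre, so the deletion and the transgene cannot be told apart in this design. The question was whether the factors that set adipocyte identity differ between the genotypes, and how Pparg stood against Cebpa.

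The conversion of a fat cell precursor into an adipocyte runs through a cascade of DNA-binding proteins. CEBPB and CEBPD act early and raise PPARG and CEBPA, which then maintain each other and the genes of lipid storage in the mature cell. PPARG binds DNA as a dimer with the retinoid X receptor RXRA, EBF1 and EBF2 and the zinc finger protein ZFP423 act in the commitment of precursors, and KLF15 and KLF9 are zinc finger proteins that respond to glucocorticoids in many tissues.

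Windows of 250 bases upstream of an annotated transcription start are shown for the factors that the text turns on, Pparg and Cebpa as the pair compared and Klf15 as the factor whose call depended on the test. They are RefSeq sequence of the assembly GRCm38.p6, all on the plus strand, with letters in lower case and motif matches on either strand in capitals.
Pparg, the farthest downstream of its annotated starts (chr6:115421816-115422065): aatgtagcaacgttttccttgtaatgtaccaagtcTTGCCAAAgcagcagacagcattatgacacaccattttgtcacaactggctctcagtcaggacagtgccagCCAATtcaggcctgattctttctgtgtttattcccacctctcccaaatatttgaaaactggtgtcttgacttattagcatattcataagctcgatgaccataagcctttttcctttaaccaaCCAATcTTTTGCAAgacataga
Cebpa (chr7:35119043-35119292): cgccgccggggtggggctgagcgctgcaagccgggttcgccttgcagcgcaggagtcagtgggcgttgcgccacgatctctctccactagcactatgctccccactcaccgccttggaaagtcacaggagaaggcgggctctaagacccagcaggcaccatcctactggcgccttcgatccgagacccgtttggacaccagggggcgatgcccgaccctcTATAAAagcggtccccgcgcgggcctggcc
Klf15 (chr6:90462326-90462575): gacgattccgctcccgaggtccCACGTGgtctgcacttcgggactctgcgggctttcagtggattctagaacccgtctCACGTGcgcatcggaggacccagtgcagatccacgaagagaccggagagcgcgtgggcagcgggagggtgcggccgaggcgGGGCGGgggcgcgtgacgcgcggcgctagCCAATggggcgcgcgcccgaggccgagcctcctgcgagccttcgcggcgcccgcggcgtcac

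The motifs searched were the C/EBP core TTGCNNAA, the TATA box TATAAA, the GC box GGGCGG, the CCAAT box CCAAT and the E-box CACGTG. The Pparg window held C/EBP core matches 215 and 16 bases upstream of the start and CCAAT boxes 144 and 22 bases upstream, counted from the first base of the match in the printed strand, and the CCAAT box at 22 and the core at 16 lie close together without sharing a base. RefSeq lists 2 further Pparg starts upstream. The window of one held a single GC box, and that of the other held a TATA box, 2 GC boxes and a CCAAT box, with no C/EBP core in either. The Cebpa window held a TATA box 30 bases upstream and no other motif of the 5. The Klf15 window held E-boxes 228 and 172 bases upstream, a GC box and a CCAAT box. Of 32851 RefSeq windows of this length, 9.56% held a C/EBP core, 12.4% a TATA box, 32.7% a GC box, 33.8% a CCAAT box and 6.02% an E-box. These matches describe letters and not binding. Cebpd and Ebf2 had no entry among these windows.

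Total counts per library lay between 30478997 and 39992605. The targeted gene Ffar2 had 1404, 1346 and 1094 counts in FFA2 fl/fl libraries 1 to 3 and 67, 38, 48 and 76 in Adipoq-F2-KO libraries 1 to 4, which matches the labels. The adipocyte label was borne out by Adipoq, Plin1, Cidec and other adipocyte markers, which summed to 36510 to 39890 normalized CPM in the controls. Normalized CPM are TMM-normalized counts scaled to library size (CPM). Adipoq-F2-KO libraries 2 and 4 stood apart in base composition, with a GC balance of -0.17 and -0.24, against 0.10, 0.11 and 0.13 in the controls and 0.10 and -0.04 in Adipoq-F2-KO libraries 1 and 3. The GC balance is the median log2 deviation of the most GC-rich 10% of tested genes from their own means, minus that of the most GC-poor 10%. Genes of the mitochondrial chromosome took 4.41% to 5.77% of counts in the controls and 6.61% to 10.3% in the knockouts. Adipoq-F2-KO library 2 also carried transcripts of sperm genes, such as Prm2 at 54.1 and Tnp2 at 31.0 normalized CPM.

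None of the 10 factors passed the test between genotypes (0 higher, 0 lower, Benjamini-Hochberg adjusted p under 0.05 over all tested genes, edgeR's quasi-likelihood test), and limma-voom called 0 and DESeq2 1. Over all tested genes 173 passed, which is 1.02% of 17039. At an unadjusted p under 0.05 there were 4 factors, Zfp423, Klf15, Rxra and Pparg, where 17.9% of all tested genes lay. The 2 genotypes did not overlap for Pparg, which was higher in the knockouts, nor for Rxra and Zfp423, which were lower. That is 3 of 10 factors, and 17.6% of all tested genes did not overlap in either direction. Groups that do not overlap stay apart when a library is left out, so this count could not fall below 3. It stayed at 3 without Adipoq-F2-KO library 2 or library 4, while the share of all tested genes rose to 22.7% and 20.9%. Between them, 4 factors had a positive and 6 a negative log2 fold change, with a median of -0.02 beside 0.00 for all tested genes. In bulk RNA, a smaller number of cells of a type and less RNA per cell cannot be told apart.

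**Figure D1:**
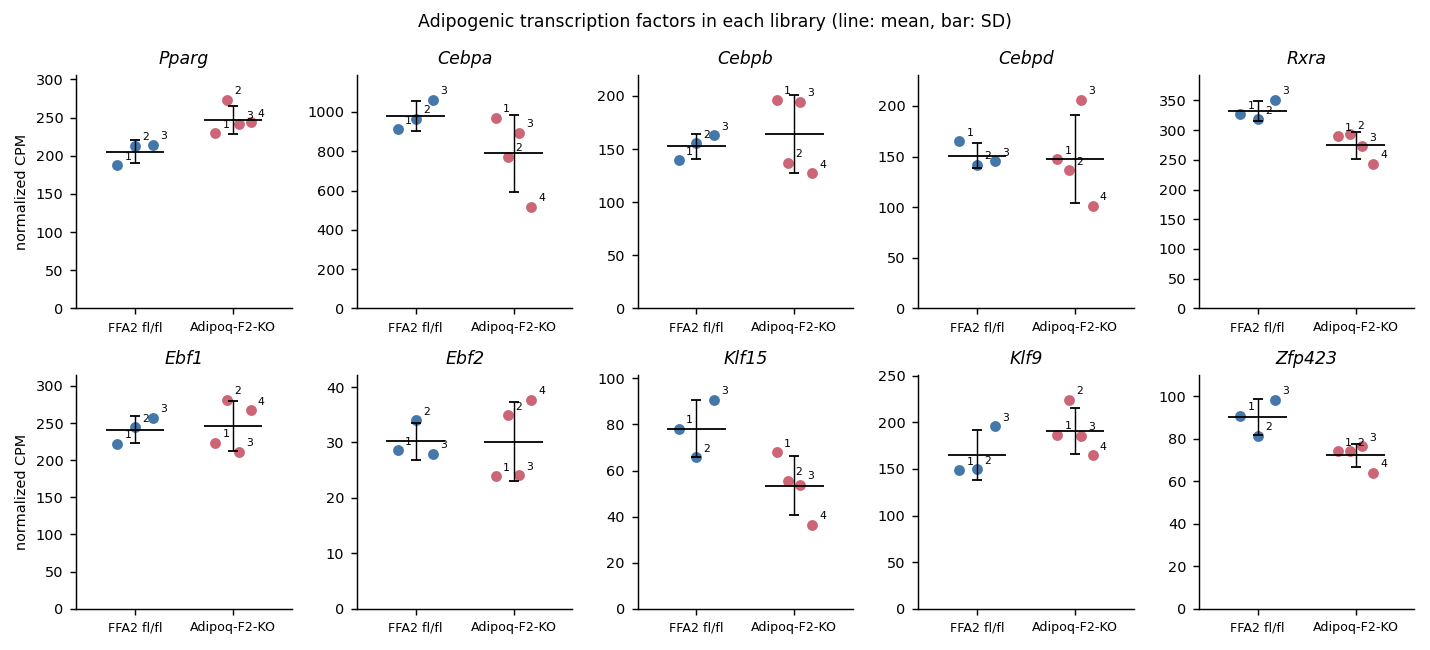
Normalized CPM (y axis, from 0) of each of the 10 factors in the 3 FFA2 fl/fl and 4 Adipoq-F2-KO libraries, with the library number beside each point, the mean as a line and the SD as a bar. The Pparg points of the knockouts all lie above the controls, those of Rxra and Zfp423 all lie below, and the other factors overlap, with Adipoq-F2-KO library 4 the lowest of all 7 for 6 factors.

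Pparg (ENSMUSG00000000440), the nuclear receptor that drives adipocyte differentiation, stood at 188, 213 and 214 normalized CPM in FFA2 fl/fl libraries 1 to 3. The 4 knockout libraries held 229, 273, 242 and 244, in the order of their numbers. Each knockout library lay above each control, with library 2 the highest and FFA2 fl/fl library 1 the lowest. The means were 205 ± 15.1 (SD, n = 3) and 247 ± 18.8 (SD, n = 4), 20.4% higher in the knockouts. The log2 fold change was 0.27 (standard error 0.09, 95% interval 0.06 to 0.48) and did not pass the edgeR test (adjusted p = 0.178). In normalized CPM the exact two-sided permutation test gave p = 0.0286, the smallest that 3 against 4 libraries allow. Leaving out any 1 library kept the log2 fold change between 0.21 and 0.31.

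Cebpa (ENSMUSG00000034957), the C/EBP protein that sustains Pparg and the mature adipocyte, stood at 911, 966 and 1062.5 normalized CPM in FFA2 fl/fl libraries 1 to 3. Knockout libraries 1 to 4 gave 970, 772, 894 and 518. Adipoq-F2-KO library 1 lay within the controls and library 4 far below the rest. The means were 980 ± 76.6 (SD, n = 3) and 789 ± 198 (SD, n = 4). The log2 fold change was -0.31 (standard error 0.18, 95% interval -0.70 to 0.07, edgeR adjusted p = 0.377). It was -0.16 without Adipoq-F2-KO library 4.

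The transcripts of Cebpa and Cebpb are among the most GC-rich of the tested genes. Cebpa has a GC content of 62.6%, at percentile 98.8 of the tested genes, Cebpb has 67.2%, at percentile 99.8, and Pparg has 50.2%, at percentile 53.1. Cebpa was lowest in the 2 libraries with the lowest GC balance, Adipoq-F2-KO libraries 4 and 2. With an offset for GC content per library, a setting chosen after seeing the data, the Cebpa log2 fold change was -0.26 (edgeR adjusted p = 0.366). On that adjusted log2 CPM scale the controls lay from 9.82 to 9.94 and the knockouts from 9.32 to 9.81, with no overlap. Pparg still did not overlap, while Rxra and Zfp423 did. With Cebpb, whose values follow, this again made 3 of 10 factors, where 18.1% of 16718 genes did not overlap on that scale. The part of base composition in the Cebpa values beyond this offset was not tested.

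**Figure D2:**
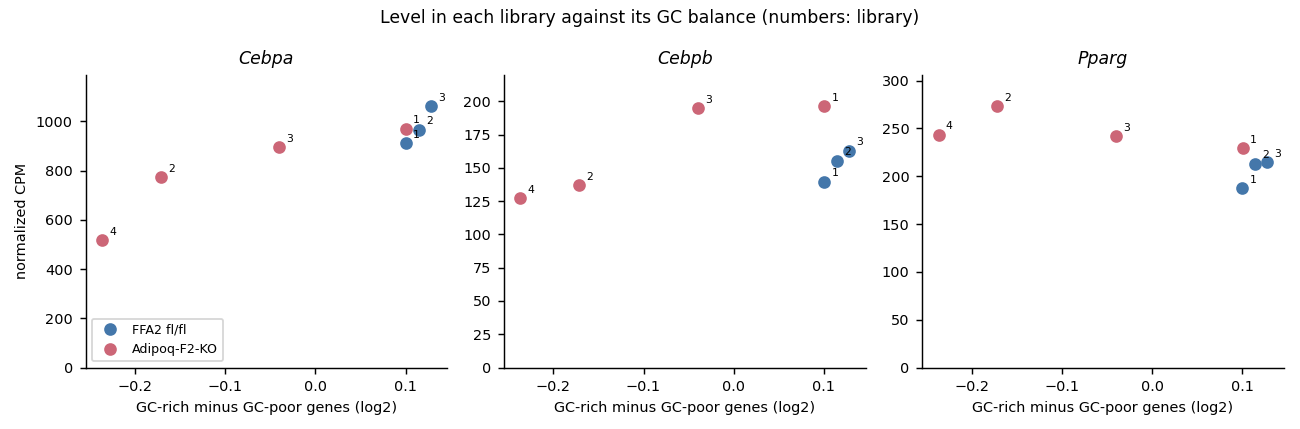
Normalized CPM (y axis, from 0) of Cebpa, Cebpb and Pparg against the GC balance of each library (x axis, log2), with FFA2 fl/fl in blue and Adipoq-F2-KO in red and the library number beside each point. Adipoq-F2-KO libraries 2 and 4, at -0.17 and -0.24, hold the 2 lowest Cebpa and the 2 lowest Cebpb values, while their Pparg values lie above all 3 controls.

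The ratio of Pparg to Cebpa counts within a library does not depend on how libraries are scaled. It was 0.206, 0.221 and 0.202 in FFA2 fl/fl libraries 1 to 3 and 0.236, 0.354, 0.270 and 0.471 in Adipoq-F2-KO libraries 1 to 4. Every knockout library lay above every control, although library 1 lay close to them. Among the knockouts the ratio rose as the GC balance fell, in the order of libraries 1, 3, 2 and 4. The part of base composition in this order was not tested. In log2 the means were -2.26 ± 0.07 (SD, n = 3) and -1.64 ± 0.44 (SD, n = 4). The difference was 0.62, a 1.54-fold higher ratio in the knockouts. An exact permutation test of the mean difference, two-sided, gave p = 0.0571, or 0.0762 adjusted over the 4 ratios tested. Without Adipoq-F2-KO library 4 the difference was 0.43. With the GC offset it was 0.47 (exact permutation p = 0.0286, unadjusted).

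Rxra (ENSMUSG00000015846), the dimer partner of PPARG, stood at 326, 318 and 351 normalized CPM in FFA2 fl/fl libraries 1 to 3. Its knockout values, in the order 1 to 4, were 289, 293, 273 and 244. All knockout libraries lay below all controls, with library 4 the lowest. The means were 332 ± 17.2 (SD, n = 3) and 275 ± 22.6 (SD, n = 4), 17.2% lower in the knockouts. In log2 the fold change was -0.27 (standard error 0.09, 95% interval -0.48 to -0.07, edgeR adjusted p = 0.168). The exact permutation test gave p = 0.0286, not adjusted over the factors. With the GC offset the genotypes overlapped and the log2 fold change was -0.22.

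Rxra and Pparg thus lay on opposite sides of their controls. The ratio of Rxra to Pparg counts was 1.74, 1.49 and 1.64 in FFA2 fl/fl libraries 1 to 3 and 1.26, 1.07, 1.13 and 1.00 in Adipoq-F2-KO libraries 1 to 4. Every knockout lay above the controls for Pparg and below them for Rxra, so the groups could not overlap. The ratio is thus not separate from the values of its 2 genes. In Adipoq-F2-KO library 4 the 2 genes had the same count. The mean log2 ratio was 0.70 ± 0.11 (SD, n = 3) in the controls and 0.15 ± 0.14 (SD, n = 4) in the knockouts, a difference of -0.54. The exact two-sided permutation test gave p = 0.0286, or 0.0762 adjusted over the 4 ratios.

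**Figure D3:**
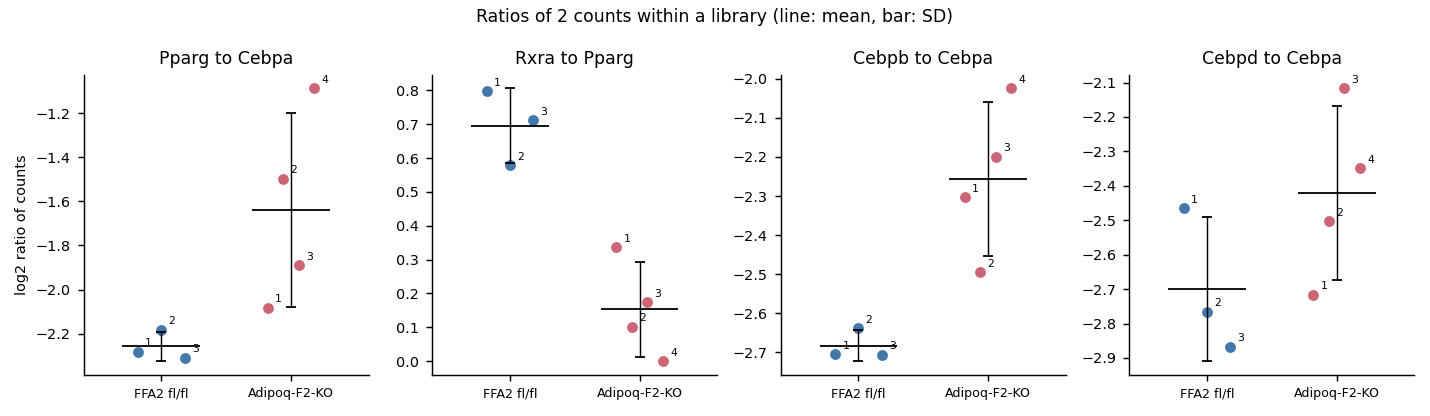
Log2 ratio of 2 counts within a library (y axis, own scale in each panel) for Pparg to Cebpa, Rxra to Pparg, Cebpb to Cebpa and Cebpd to Cebpa, with library numbers, means as lines and SD as bars. The first 3 ratios do not overlap between genotypes, at differences of 0.62, -0.54 and 0.43, and the last overlaps. The ratios to Cebpa share its counts, and that of Rxra to Pparg could not overlap given the values of its 2 genes. A share over all pairs of genes was not computed.

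Cebpb (ENSMUSG00000056501), an early factor of the cascade that hormones and inflammatory signals also induce, stood at 140, 155 and 163 normalized CPM in FFA2 fl/fl libraries 1 to 3. Adipoq-F2-KO libraries 1 to 4 held 197, 137, 195 and 127. Adipoq-F2-KO libraries 1 and 3 lay above all controls, and libraries 2 and 4 lay below all of them. The means were 153 ± 11.8 (SD, n = 3) and 164 ± 36.9 (SD, n = 4). The log2 fold change was 0.10 (standard error 0.15, 95% interval -0.24 to 0.44, edgeR adjusted p = 0.771). After the GC offset the knockouts lay from 7.32 to 7.44 in log2 CPM, above the controls at 7.11 to 7.18, and the log2 fold change was 0.16 (edgeR adjusted p = 0.425).

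The ratio of Cebpb to Cebpa counts was 0.153, 0.161 and 0.153 in the controls and 0.203, 0.177, 0.218 and 0.246 in the knockouts. All knockout libraries lay above all controls, the difference in mean log2 ratio was 0.43, and the exact permutation test gave p = 0.0571 (0.0762 adjusted over the 4 ratios). Both genes are GC-rich, and with the GC offset the difference was 0.45 (exact permutation p = 0.0286, unadjusted).

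Cebpd (ENSMUSG00000071637), the partner of CEBPB in the early phase, stood at 165, 142 and 146 normalized CPM in FFA2 fl/fl libraries 1 to 3. The 4 knockout libraries held 148, 136, 206 and 102, in the order of their numbers. The knockouts held both the highest value, in library 3, and the lowest, in library 4. The means were 151 ± 12.4 (SD, n = 3) and 148 ± 43.5 (SD, n = 4). The log2 fold change was -0.03 (standard error 0.19, 95% interval -0.44 to 0.38, edgeR adjusted p = 0.958). The sign turned on single libraries. The ratio of Cebpd to Cebpa differed by 0.28 in log2 (exact permutation p = 0.171), with overlap.

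Klf15 (ENSMUSG00000030087), a zinc finger protein of adipocyte glucose and amino acid metabolism, stood at 78.1, 65.9 and 90.7 normalized CPM in FFA2 fl/fl libraries 1 to 3. Knockout libraries 1 to 4 gave 68.0, 55.5, 53.8 and 36.5. Adipoq-F2-KO library 1 lay just above FFA2 fl/fl library 2, and the other 3 knockout libraries lay below all controls. The means were 78.2 ± 12.4 (SD, n = 3) and 53.5 ± 12.9 (SD, n = 4), 31.6% lower. The log2 fold change, -0.55 (standard error 0.18, 95% interval -0.94 to -0.16), was the lowest of the 10 and did not pass the edgeR test (adjusted p = 0.150). Klf15 was the only factor called under any alternative. It was called lower by DESeq2 (adjusted p = 0.0427), where 6.21% of 14342 genes were called. It was also called by edgeR over all genes with at least 1 count (adjusted p = 9.6e-04), where 4.92% of 28515 genes were called. The log2 fold change was the same there, -0.55, and the standard error was 0.12 instead of 0.18. In that setting the standard errors of the 10 factors lay from 0.11 to 0.13, against 0.09 to 0.19 in the main fit. Over the settings tried, the edgeR, DESeq2 or voom adjusted p of Klf15 ranged from 9.6e-04 to 0.433, and its log2 fold change from -0.68 to -0.40.

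Klf9 (ENSMUSG00000033863), a second glucocorticoid-responsive zinc finger protein, stood at 149, 150 and 196 normalized CPM in FFA2 fl/fl libraries 1 to 3. Its knockout values, in the order 1 to 4, were 187, 224, 185 and 165. FFA2 fl/fl library 3 lay among the knockouts, which lay above the other controls. The means were 165 ± 26.9 (SD, n = 3) and 190 ± 24.6 (SD, n = 4). Its log2 fold change was 0.21 (standard error 0.13, 95% interval -0.08 to 0.49, edgeR adjusted p = 0.432). Its point estimate thus had the opposite sign to that of Klf15.

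Zfp423 (ENSMUSG00000045333), a zinc finger protein of precursor commitment, stood at 90.7, 81.4 and 98.2 normalized CPM in FFA2 fl/fl libraries 1 to 3. Adipoq-F2-KO libraries 1 to 4 held 74.0, 74.2, 76.4 and 63.9. All knockout libraries lay below all controls. The means were 90.1 ± 8.44 (SD, n = 3) and 72.1 ± 5.58 (SD, n = 4), 20.0% lower. In log2 the fold change was -0.32 (standard error 0.10, 95% interval -0.54 to -0.10, edgeR adjusted p = 0.133). Its exact permutation p was 0.0286, not adjusted over the factors. Its unadjusted edgeR p, 0.00751, was the smallest of the 10. With the GC offset the genotypes overlapped and the log2 fold change was -0.27.

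Ebf1 (ENSMUSG00000057098), which takes part in both B cell and adipocyte development, stood at 222, 244 and 257.5 normalized CPM in FFA2 fl/fl libraries 1 to 3. The 4 knockout libraries held 223, 281, 211 and 268, in the order of their numbers. The genotypes overlapped, at 241 ± 17.7 (SD, n = 3) and 246 ± 33.8 (SD, n = 4), and the log2 fold change was 0.03 (standard error 0.11, 95% interval -0.23 to 0.28, edgeR adjusted p = 0.931).

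Ebf2 (ENSMUSG00000022053), a factor linked to thermogenic adipocytes and their precursors, stood at 28.6, 34.0 and 28.0 normalized CPM in FFA2 fl/fl libraries 1 to 3. Knockout libraries 1 to 4 gave 23.9, 34.9, 24.1 and 37.7. Adipoq-F2-KO libraries 1 and 3 lay below the controls and libraries 2 and 4 above them, the reverse of the order seen for Cebpb. The means were 30.2 ± 3.34 (SD, n = 3) and 30.2 ± 7.17 (SD, n = 4), and the 95% interval of the log2 fold change ran from -0.38 to 0.37 (edgeR adjusted p = 0.994).

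**Figure D4:**
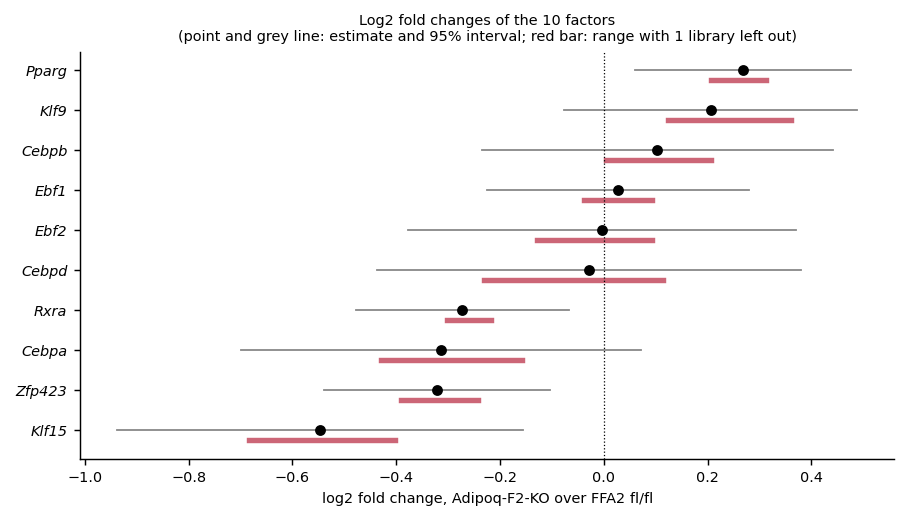
Log2 fold change of Adipoq-F2-KO over FFA2 fl/fl for the 10 factors (x axis), ordered by value, with the 95% interval as a grey line and the range over the 7 fits that each leave out 1 library as a red bar. The intervals of Pparg, Rxra, Zfp423 and Klf15 do not include 0, none of the 10 passes at an adjusted p under 0.05, and Klf15 lies lowest at -0.55.

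Per kilobase of summed exon length, Cebpa was the most abundant factor, with a level of 372 ± 29.0 normalized CPM per kilobase in the controls (SD, n = 3) and 299 ± 75.2 in the knockouts (SD, n = 4). Cebpb followed at 101 and 109 and Pparg at 69.4 and 83.6, in the same order of genotypes. Rxra stood at 52.6 and 43.6, Cebpd at 40.3 and 39.5, Klf9 at 34.2 and 39.5, Klf15 at 28.0 and 19.2, Ebf1 at 24.7 and 25.2, Zfp423 at 16.1 and 12.9, and Ebf2 at 4.36 and 4.35. Cebpa lay above Cebpb in 7 of 7 libraries, Pparg above Rxra in 7, Klf9 above Klf15 in 7, Ebf1 above Zfp423 in 7, and Zfp423 above Ebf2 in 7. Cebpb lay above Pparg in 6 libraries and Rxra above Cebpd in 6. Cebpd against Klf9, with the first above in 4 libraries, and Klf15 against Ebf1, in 3, had no fixed order.

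Among 8564 other genes that averaged 10 CPM or more, the profile over the 7 libraries most like that of Pparg was that of Tmem41b, at a root mean square difference of 0.0393 in log2 CPM centred on each gene's mean. Nup50 (0.0449) and Nfil3 (0.0464) came next. Nearest to Cebpa were Erp29 (0.05), Ubxn6 (0.0611) and Bri3 (0.0617).

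The deposited table places Pparg on chromosome 6 from 115337912 to 115467360, Klf15 on chromosome 6 from 90439558 to 90452220, Cebpa on chromosome 7 from 34818718 to 34821353, Cebpb on chromosome 2 from 167530835 to 167532338 and Rxra on chromosome 2 from 27566452 to 27652969. Cebpd lies on chromosome 16 from 15705150 to 15708895, Ebf1 on chromosome 11 from 44508144 to 44898918, Ebf2 on chromosome 14 from 67470741 to 67668367, Klf9 on chromosome 19 from 23118590 to 23145498 and Zfp423, on the minus strand, on chromosome 8 from 88388438 to 88686223. The values are counts over all exons of each gene, and the coordinates differ from those of GRCm38, the build named in the submitters' processing notes. Genes on the opposite strand overlap Cebpb (Tmem189, 1083 to 1786 counts per library), Cebpd (Spidr, 242 to 363), Cebpa (Gm45091, 22 to 127), Pparg (Gm44079, 0 to 26) and Ebf1 (Gm12158, 0 to 15). Whether the counting used strand is not stated, so reads of such pairs may be shared or dropped.

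The other genes of the pathway were described by lists of the same kind. Over all tested genes 8595 were higher and 8441 lower, and 17.9% had an unadjusted p under 0.05. The edgeR test called 1.02% of them, and DESeq2 called 6.21% of 14342 genes. Of 34 tested further activators of adipogenesis, 17 were higher and 17 lower, and their median was -0.01 on the log2 scale. At an unadjusted p under 0.05 there were 15 of the 34, and DESeq2 called 2 higher and 4 lower. Mlxipl, the carbohydrate response factor ChREBP, was the 1 that passed the edgeR test, and it fell to 89.5 ± 7.77 normalized CPM in the knockouts (SD, n = 4), where the controls stood at 126 ± 10.4 (SD, n = 3). Its log2 fold change was -0.49 (SE 0.10, edgeR adjusted p = 0.0471). Mlxipl lost the call with the GC offset (adjusted p = 0.0584), with the replicate block (adjusted p = 0.0604) and in 6 of the 7 fits that left out 1 library.

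Of 26 tested repressors of adipogenesis 15 were higher and 11 lower, with a median of 0.05 and none passing the edgeR test (0 of 26, 7 at an unadjusted p under 0.05, 3 by DESeq2, 1 by limma-voom). Bhlhe40, a circadian repressor, had a log2 fold change of 0.60 (edgeR adjusted p = 0.0577), Klf2 of -0.54, Klf7 of 0.58 and Zfp521, an antagonist of Zfp423 and EBF1, of 0.75. Of 34 tested coregulators of PPARG and C/EBP 18 were higher and 16 lower, with a median of 0.02 and none passing (0 of 34, 7 at an unadjusted p under 0.05, 3 by DESeq2). The smallest p among them were those of Cited2 (-0.38), Trib2 (0.93), Ncoa3 (0.41) and Sirt1 (0.41).

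Of 49 tested target genes of PPARG and CEBPA, 43 were lower and 6 higher in the knockouts, with a median of -0.23, and 13 of them are also adipocyte markers. At an unadjusted p under 0.05 there were 20 of the 49, where 17.9% of all tested genes lay. DESeq2 called 1 higher and 6 lower, beside 6.21% of 14342 genes. Of the 49, 2 passed the edgeR test. Lpin1, a phosphatidate phosphatase of triglyceride synthesis, fell by 0.78 on the log2 scale, with 953 ± 119 normalized CPM in the controls (SD, n = 3) and 556 ± 64.7 in the knockouts (SD, n = 4, edgeR adjusted p = 0.0332). Olr1, a receptor for oxidized lipoprotein, rose by 1.72 on the log2 scale, with 2.83 ± 0.866 normalized CPM in the controls (SD, n = 3) and 9.35 ± 1.26 in the knockouts (SD, n = 4, edgeR adjusted p = 0.0221). Beside these target genes, the point estimate was positive for Pparg and negative for Cebpa and Rxra.

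Of 22 tested genes that glucocorticoids induce, as they do Klf15 and Klf9, 12 were higher and 10 lower, with a median of 0.07. At an unadjusted p under 0.05 there were 16 of the 22, where 17.9% of all tested genes lay. DESeq2 called 4 higher and 2 lower, beside 6.21% of 14342 genes. Errfi1, a feedback inhibitor of the EGF receptor, rose with a log2 fold change of 0.90, and Lcn2, an iron-carrier binding protein that inflammation also induces, rose with 1.26 (both edgeR adjusted p = 0.0332). The list thus held genes on both sides of 0, as did Klf15 and Klf9.

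Markers of other cell types moved with genotype and are given beside the factors. Adipocyte markers were lower for 13 of 14, with a median of -0.32, and summed to 24390 to 33400 normalized CPM in the knockouts, below the 36510 of the lowest control. Macrophage markers were higher for 19 of 20, with a median of 0.63, and summed to 597 to 792 in the controls and 903 to 1092 in the knockouts. Progenitor markers were higher for 14 of 17 (median 0.48, sums 1475 to 1835 and 1919 to 2367) and endothelial markers for 12 of 12 (median 0.47, sums 1279 to 1659 and 1735 to 2809). None of the adipocyte or endothelial markers passed the edgeR test (0 of each, 7 and 10 at an unadjusted p under 0.05, 4 lower and 5 higher by DESeq2). Of all tested genes 17.9% lay under that unadjusted p, and DESeq2 called 6.21% of 14342. The adipocyte markers with the smallest p were Slc2a4 (log2 fold change -0.35), Lipe (-0.40), Pck1 (-0.68) and Trarg1 (-0.42), and the most abundant were Cfd (-0.32) and Cidec (-0.40). Among endothelial markers the smallest p were those of Cldn5 (0.46), Cdh5 (0.59), Tek (0.63) and Erg (0.65), and Cdh5 and Pecam1 (0.51) were the most abundant. The most abundant macrophage markers were Cd74 (0.54) and Lyz2 (0.69), and the most abundant progenitor markers were Col3a1 (0.41) and Col1a2 (-0.21). Among the others, 3 macrophage markers (Lyz2, Cybb and Cd68) and 1 progenitor marker (Icam1, which inflammation also induces) passed the edgeR test as higher. Their part in the values of the 10 factors was not tested. All 9 list genes that passed (Mlxipl, Lpin1, Olr1, Errfi1, Lcn2, Lyz2, Cybb, Cd68 and Icam1) lost the call when FFA2 fl/fl library 1, FFA2 fl/fl library 3 or Adipoq-F2-KO library 2 was left out, with 0 of 9 remaining each time.

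**Figure D5:**
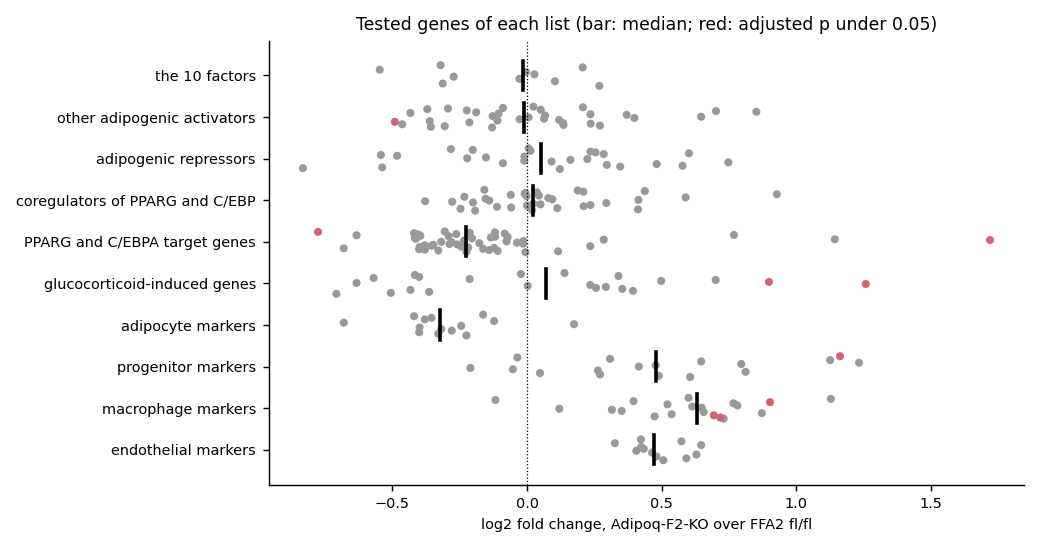
Log2 fold change of Adipoq-F2-KO over FFA2 fl/fl (x axis) of the tested genes of each list (rows), with the list median as a black bar and genes with an edgeR adjusted p under 0.05 in red. The 10 factors spread about 0 with a median of -0.02, the target genes and adipocyte markers lie mostly below 0, and the progenitor, macrophage and endothelial markers lie mostly above it.

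Mesothelial markers had a median of 0.08 over 7 tested, T cell markers of 0.09 over 5 and early response genes of 0.06 over 22. None of these passed the edgeR test (0 genes), while at an unadjusted p under 0.05 there were 2, 1 and 7 genes, and DESeq2 called 2 early response genes. The smallest p were those of Krt19 (log2 fold change -2.49), Wt1 (0.73), Upk3b (-0.83) and Lrrn4 (-0.22) among mesothelial markers, which Krt19 and Wt1 led in abundance, and of Thy1 (0.65) and Lck (0.09) among T cell markers. Among early response genes they were those of Klf2 (-0.54), Nr4a3 (1.13), Nr4a2 (0.72) and Dusp1 (0.35). Of 3 tested neutrophil markers, Lcn2 was called, and it and S100a8 (-0.18) were the most abundant.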

How the data were processed

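Total RNA of mature adipocytes was poly-A selected, made into stranded libraries and sequenced from both ends. The authors used Trimmomatic, STAR and featureCounts to trim, align and count the reads, and the deposited values are raw counts per gene with summed exon lengths. Tool versions and the strand setting are not given in the sources used here. Most low counts were even, as when both mates of a pair are counted.

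Groups came from the sample titles. The 7 libraries differed by more than sampling noise and entered one edgeR 4.0.16 fit in R 4.3.3 (filterByExpr, TMM, glmQLFit and glmQLFTest, two-sided, genotype alone), with p-values adjusted by Benjamini and Hochberg over 17039 genes. Nothing in the labels says that the libraries come from separate mice beyond their numbering. The p-values therefore set the genotype difference against the spread between these samples. The 4 ratios, and the normalized CPM of each factor, were tested by exact permutation over all 35 splits. Standard errors were taken from the size of the log2 fold change over the root of F. Symbols were matched for 52029 of 57010 identifiers. DESeq2 1.42.0, limma-voom 3.58.1, size factors, a filter of at least 1 count, halved counts, left-out libraries or genes, the replicate number as a block and a GC offset were alternatives. At this depth 3 counts correspond to 0.075 to 0.0984 normalized CPM, for counting error only.

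The members and the gene lists were chosen with earlier results of these data known. Named genes are the 10 factors, Ffar2, list genes that passed the test or otherwise the 4 with the smallest p and at least 1 CPM, the 2 most abundant of each cell type list, and the 3 profiles nearest to Pparg and Cebpa. One marker list is not reported here.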

Additional observations from a re-analysis of the deposited data

Results flagged for a closer look

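The summed level of the germ cell and epididymal markers was 134 normalized CPM in Adipoq-F2-KO library 2, against 3.21 to 15.0 in the other 3 knockout libraries and 0 to 7.13 in the controls. The gap to the nearest library made up 0.91 of the range of the group, above the 95% critical value of Dixon's test for 4 samples. Of 24 sets of values tested in this way 1 was so marked, and chance alone marks about 1 in 20. Of 6 tested markers 5 had a positive log2 fold change (median 4.23), and none passed the edgeR test (0 of 6, 3 at an unadjusted p under 0.05, 2 by DESeq2). The smallest p were those of the sperm genes Prm2, Prm1, Tnp2 and Smcp, and Prm2 and Tnp2 were the most abundant, at means of 15.4 and 8.62 normalized CPM in the knockouts and 0.186 and 0.124 in the controls. These fitted fold changes depend on counts near 0 in the controls. Pparg was highest in Adipoq-F2-KO library 2, and the Pparg log2 fold change over all fits that leave out 1 library stayed between 0.21 and 0.31.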

How the results depend on the processing

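The number of genes called, 173, was 1403 with all genes of at least 1 count and 890 by DESeq2, and between 1 and 178 when 1 library was left out. Klf15 made the number of factors called lower 1 under those first 2 settings. The signs of 3 factors close to 0 turned. Cebpd ranged from -0.23 to 0.11 with 1 library left out, Ebf1 from -0.038 to 0.094 and Ebf2 from -0.13 to 0.093. Ebf1 was -0.060 with the GC offset, and Ebf2 was 0.0005 with DESeq2's size factors and 0.0003 in DESeq2. Of 150 recomputed fold changes of the 10 factors, 134 kept direction and side of the threshold. No factor passed in the main fit, so this count does not measure how far the values moved. Cebpa, for one, was counted as kept when it went from -0.31 to -0.16 without Adipoq-F2-KO library 4. Leaving out 1 library, the Rxra to Pparg difference stayed between -0.604 and -0.492, where permutation p of 0.0667 and 0.1 are the smallest that can be reached. The Pparg to Cebpa difference then stayed between 0.434 and 0.766 (exact permutation p 0.1 to 0.133). With the GC offset, chosen after seeing the data, the Pparg to Cebpa difference was 0.465 and the Cebpb to Cebpa difference 0.446 (exact permutation p = 0.0286 each). On the same scale the Rxra to Pparg difference was -0.431 (exact permutation p = 0.0286) and the Cebpd to Cebpa difference 0.16 (exact permutation p = 0.486). The cause of these shifts was not tested. Without both Adipoq-F2-KO libraries 2 and 4, 2 factors did not overlap upwards and 3 downwards, where 30.8% of all tested genes did not overlap.

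Deviations of same-numbered libraries from their group means were hardly correlated (0.03, -0.02 and -0.02). With groups of 3 and 4 libraries, this cannot settle whether the numbers pair the samples. With the replicate block 224 genes were called, Cebpd was 0.093 and Ebf1 -0.024. Only the knockouts have a number 4, so in this fit Adipoq-F2-KO library 4 does not inform the genotype difference. Over the 3 numbered pairs the Rxra to Pparg difference was -0.492 and the Pparg to Cebpa difference 0.434. The exact permutation p was 0.25 for each, the smallest that 3 pairs allow.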
